A study of Drosophila melanogaster with 19 samples.

Results

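The steady change of nuclear RNA with age was followed in outer photoreceptors of male *Drosophila melanogaster* between day 30 and day 60 after eclosion. All 12 libraries with those ages were used, out of 19 in the series, with 3 libraries each at day 30 (D30), day 40 (D40), day 50 (D50) and day 60 (D60). The other 7 libraries, of day 20, of constant darkness (DD) and of a light:dark cycle (LD), entered only where named. For every gene a straight line on age was fitted to the 12 libraries, and genes whose line rose or fell past the test were then described by functional class.

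All 12 libraries came from 1 genotype, w;;UAS-GFP-Msp300KASH at attP2 with rh1-GAL4 and ry[506]. The rh1 promoter, that of the visual pigment gene *ninaE*, drives Gal4 in outer photoreceptors, and Gal4 switches on a green fluorescent protein joined to the KASH domain of Msp300, which sits in the outer nuclear membrane. Nuclei so tagged were pulled out of head lysates of pooled male flies kept at 25 °C with 12 hours of light and 12 of darkness each day and collected at zeitgeber time (ZT) 6, and their RNA was made into libraries. By their labels the 12 libraries differ only in age and replicate. The labels do not say by culture or batch which pools belong together, so a p-value measures only the spread between these pools of flies.

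An outer photoreceptor turns light into a change of membrane voltage through rhodopsin, a G protein, phospholipase C and the TRP channels, and signals to the brain with histamine. Its identity is set by a small network of eye transcription factors that stays on in the adult, and its synapse, channels and adhesion molecules are made from genes that are often very long. Nuclear RNA holds transcripts being made and processed, so a change in it can come ahead of, or without, a change in the cytoplasm.

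The libraries held between 629634 and 864536 counts. The first libraries of D30 and D40 stood apart from the other 10 on the second principal component, at 26.8 and 17.3 against -13.96 to 4.76, while the first component ordered the ages. The most abundant gene, *Ank2*, took 4.50% to 10.5% of the counts, and genes spanning more than 20000 bases took 48.4% to 55.3%. The 3 libraries of D60 differed from each other by little more than counting noise, with a chi-square of 1.21 to 1.29 per degree of freedom, against 1.59 to 11.6 for pairs within the other ages. The marker check fitted the label in the main: the 11 outer photoreceptor markers summed to 67611 to 76453 CPM (counts scaled to a common library size) in the D30 libraries and 77673 to 83151 CPM at D60, whereas 7 markers of the inner photoreceptors R7 and R8 summed to 265 to 346 CPM at D30 and 239 to 264 CPM at D60. *ninaE* itself ran at 20693, 9864 and 9138 CPM at D30, 10832, 7223 and 8187 CPM at D40, 19176, 9623 and 13451 CPM at D50 and 12752, 14322 and 13790.3 CPM at D60, with the first library of D30 highest and the ages overlapping.

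Of 4745 genes tested, 501 rose and 395 fell along the line at an adjusted p under 0.05, or 10.6% and 8.32% of the genes tested. Every adjusted p given for a slope is from edgeR's quasi-likelihood test with Benjamini-Hochberg adjustment over those 4745 genes, and a slope in brackets is in log2 units per 10 days ± its SE. The called risers changed by more than the called fallers. On the fitted line the median riser stood 2.39-fold higher at D60 than at D30, and the median faller at 0.598 of its D30 level. A change of more than 2-fold over the 30 days was fitted for 335 risers and 97 fallers. Risers had a median of 36 counts per library and fallers 155, and a riser low at D30 can pass the filter through later ages alone. The part that counts and the filter play in this difference of size was not tested. A gene was called steady where the 4 fitted age means also ran in strict order, and this held for 292 risers (6.15% of the genes tested) and 279 fallers (5.88%). All 3 D60 libraries lay above all 3 D30 libraries in 497 of the 501 risers and below them in 375 of the 395 fallers. Over all genes tested such separation was seen in 20% upward and 17.7% downward. The slope that called these genes used the same libraries, so this separation is a description and adds no support.

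The numbers of called genes leaned on the ages at the ends, and most on the last. Without D60 replicate 1, 2 or 3 the fallers numbered 244, 233 and 222 and the risers 395, 373 and 380. Without D30 replicate 1, 2 or 3 the fallers numbered 341, 314 and 323 and the risers 481, 455 and 482. A line through D40, D50 and D60 alone called 326 rising and 190 falling genes. A line through D30, D40 and D50 alone called 58 rising and 9 falling genes. Both of these lines have fewer libraries and a shorter span of ages.

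The genes were chosen by a slope over these same libraries, so their steps between ages are a description with no test. Among risers the median difference of fitted age means was 0.25 log2 units between D40 and D30, 0.49 between D50 and D40 and 0.46 between D60 and D50. Among fallers the same steps were -0.17, -0.26 and -0.30. The first, middle and last of the 3 steps was the largest in 20.8%, 43.9% and 35.3% of risers, in 21%, 35.2% and 43.8% of fallers, and in 35%, 35.7% and 29.3% of all genes tested. A slope over 4 ages gives the middle step the most weight.

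**Figure D1:**
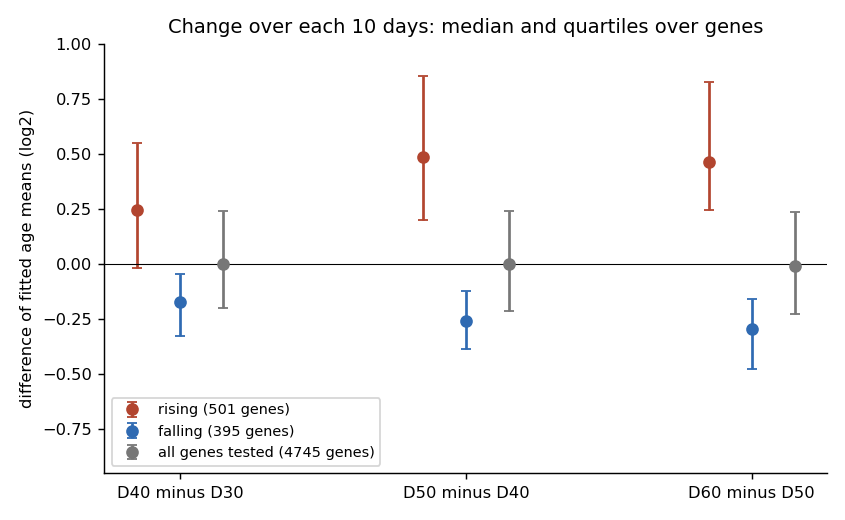
Change over each 10 days, as the difference of fitted age means in log2 units, for the 501 rising genes, the 395 falling genes and all 4745 genes tested. Points are medians over genes and bars run between the quartiles. In risers and fallers the first step has the smallest median, and all genes together stay near 0 at each step.

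A curved trend was called in 4 genes, all bending upward with age (0.0843% of the genes tested, while 365 had an unadjusted p under 0.05). *Dscam1*, the adhesion protein of neurite self-recognition, had 119.9, 187 and 215 CPM at D30, 174, 177 and 158 CPM at D40, 414, 387 and 350.2 CPM at D50 and 1136, 1176 and 1134 CPM at D60. It was flat between D30 and D40 and then climbed at each step, with no overlap between D40, D50 and D60. *cora*, a septate junction protein, averaged 248, 209, 334 and 627 CPM at D30, D40, D50 and D60, and *Fas3*, a homophilic adhesion protein, 48.5, 27.5, 79.2 and 269.8 CPM. The other gene, *CG8617*, averaged 10.5, 6.38, 12.03 and 63.5 CPM and was named after its values were seen, being too low in counts for the rule. These calls rested on few libraries: none was left without D30 replicate 3, D40 replicate 2 or any 1 of the D60 libraries, and 23 genes were called without D40 replicate 1.

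In a handful of genes no library of any age overlapped the next. Such full order was upward in 8 genes (*CG31459*, *CG15450*, *CG14662*, *shps*, *ft*, *dpr11*, *Sap-r* and *Shab*) and downward in 7 (*cno*, *aus*, *toc*, *Dmtn*, *Acn*, *lbk* and *CG10077*), and these genes were named after their values were seen. *Sap-r*, the precursor of the saposins that help lysosomal sphingolipid breakdown, had 655, 790.3 and 735 CPM at D30, 836, 859 and 829 CPM at D40, 1121, 1035 and 1173 CPM at D50 and 1289.8, 1341 and 1353 CPM at D60. *CG31459* was the steepest of the 8, with 0, 2.59 and 2.99 CPM at D30, 3.60, 4.71 and 4.89 CPM at D40, 15.99, 8.63 and 19.1 CPM at D50 and 75.9, 102 and 67.4 CPM at D60. Its D30 libraries were at or near 0 while each D60 library stood above 60 CPM.

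Genes with at least 50 counts per library on average, steady order and no overlap between D60 and D30 were ranked by slope. The 10 steepest risers were *Mettl3*, *Cdc6*, *Ac78C*, *CG31286*, *dbr*, *Mp*, *tej*, *Rgk1*, *Aldh* and *Cks30A*, and each was called in all 12 fits that left out 1 library. They do not belong to a single pathway by known role. *Mettl3* (chr3R:24032157-24034257 in dm6, plus strand) encodes the catalytic subunit of the m6A writer of messenger RNA. It had 8.10, 22.03 and 23.9 CPM at D30, 20.4, 38.9 and 31.8 CPM at D40, 100.8, 98.6 and 169 CPM at D50 and 316, 314 and 298 CPM at D60. Every D50 library lay above every D40 library and every D60 library above those, while D30 and D40 overlapped. Its slope was 1.47 ± 0.10 log2 units per 10 days (SE, adjusted p = 4.9e-09), or 21.2-fold over the 30 days. It was the only called gene of 7 tested in the list of m6A methylation.

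*Ac78C* (chr3L:21136447-21171930, minus strand), an adenylyl cyclase that makes cyclic AMP, had 14.6, 28.5 and 20.9 CPM at D30, 21.6, 49.5 and 42.7 CPM at D40, 81.2, 64.1 and 138 CPM at D50 and 275, 280.1 and 282 CPM at D60, a slope of 1.29 ± 0.10 log2 units per 10 days (SE, adjusted p = 2.1e-08). *tej* (chr2R:14300103-14302353, minus strand), a Tudor domain protein of the piRNA pathway in the fly germ line, had 22.7, 37.6 and 49.3 CPM at D30, 62.3, 57.7 and 46.4 CPM at D40, 132, 138 and 199 CPM at D50 and 372, 355 and 323 CPM at D60, a slope of 1.15 ± 0.08 log2 units per 10 days (SE, adjusted p = 4.9e-09). In both genes the D60 libraries lay far above the D50 libraries. *Mp*, the fly's multiplexin collagen of basement membranes, had 51.9, 94.6 and 64.3 CPM at D30, 91.1, 86.03 and 85.5 CPM at D40, 277, 240.4 and 279 CPM at D50 and 731, 657 and 665 CPM at D60, which was flat to D40 and then higher at each age (slope 1.17 ± 0.08, adjusted p = 4.9e-09). *Rgk1*, a small GTPase of the RGK family, averaged 90.2, 96.7, 331 and 803 CPM at D30, D40, D50 and D60. *dbr* reached the highest level of the group, averaging 232, 319, 1131 and 2492 CPM at the 4 ages.

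*Aldh*, an aldehyde dehydrogenase, had 61.6, 89.4 and 85.2 CPM at D30, 92.3, 87.2 and 81.8 CPM at D40, 252, 165 and 325 CPM at D50 and 681, 762 and 672 CPM at D60 (slope 1.13 ± 0.09, adjusted p = 7.6e-08). It overlaps *Shawl*, a voltage-gated potassium channel gene on the other strand, which had 22.7, 9.07 and 19.4 CPM at D30, 14.4, 17.7 and 30.5 CPM at D40, 61.5, 69.1 and 102 CPM at D50 and 112, 98.3 and 139 CPM at D60 and also rose (slope 1.04 ± 0.12, adjusted p = 3.4e-06). Whether the counts used strand is not stated, so reads of these genes cannot be told apart. The same limit holds for *Cdc6*, which overlaps *Zasp66*, and for *CG31286*, which overlaps *Ass*. Any named gene that overlaps another has this limit, and 52.8% of risers and 67.3% of fallers overlap another annotated gene on either strand, against 55.9% of all genes tested. *CG31286* and *Cks30A*, a cyclin-dependent kinase subunit, were also high in the first D40 library, at 239 and 97.1 CPM, against 7.07 to 25.9 CPM in the other D40 libraries.

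**Figure D2:**
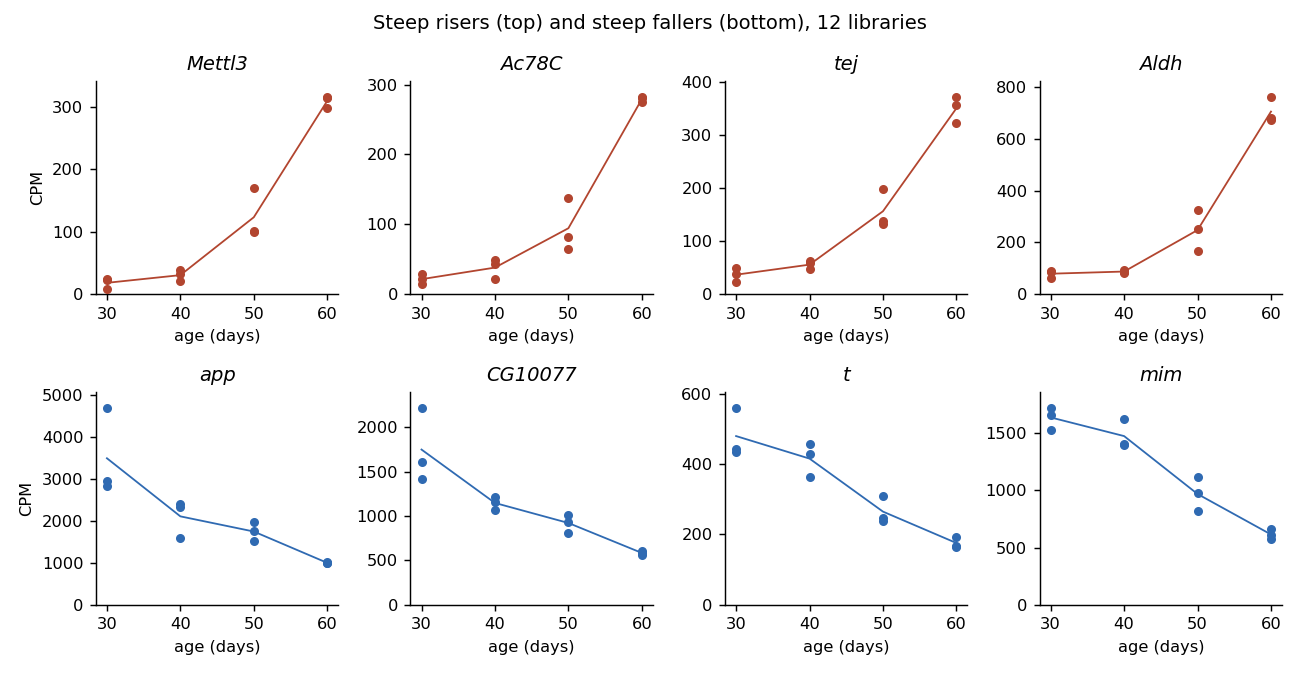
CPM in each of the 12 libraries (points) and the mean at each age (line) against age in days, for 4 of the steepest rising genes (top) and 4 of the steepest falling genes (bottom). Axes start at 0 and differ between panels. The D60 libraries lie above those of D30 in each top panel and below them in each bottom panel.

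The 10 steepest fallers were *Achl*, *shakB*, *tinc*, *app*, *stum*, *CG10077*, *t*, *CG44838*, *mim* and *shg*, again called in all 12 fits that left out 1 library. *t* (tan; chrX:9217655-9223257, minus strand) encodes the hydrolase that frees histamine from carcinine, the form in which glia hand it back to photoreceptors. It had 561, 443 and 435 CPM at D30, 362, 428 and 457 CPM at D40, 247, 238 and 309 CPM at D50 and 168, 194 and 164 CPM at D60. D30 and D40 overlapped, and all D60 libraries lay below all D50 libraries (slope -0.50 ± 0.06, adjusted p = 3.2e-06). *app* (chr3L:12206238-12266841, minus strand), a palmitoyltransferase that acts with the Fat cadherin in tissue polarity, had 4700.1, 2942 and 2831 CPM at D30, 1587, 2407 and 2327 CPM at D40, 1519, 1749.7 and 1968 CPM at D50 and 985, 1027 and 985 CPM at D60, with its first D30 library above the other 2 (slope -0.57 ± 0.06, adjusted p = 3.1e-06).

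*CG10077* (chr3L:6949491-6955904, minus strand) was ordered without overlap at every age, with 2224, 1416 and 1609.6 CPM at D30, 1067, 1213 and 1164 CPM at D40, 810.4, 938 and 1018 CPM at D50 and 611, 579 and 563 CPM at D60 (slope -0.50 ± 0.05, adjusted p = 7.0e-07). *mim*, a membrane-bending I-BAR protein that binds actin, had 1659.6, 1530.1 and 1725 CPM at D30, 1400.3, 1404 and 1621 CPM at D40, 975, 816 and 1114 CPM at D50 and 578, 606 and 660.4 CPM at D60. It changed little between D30 and D40 and fell at each later step (slope -0.49 ± 0.05, adjusted p = 2.0e-06). *Achl* had 934, 596 and 656 CPM at D30, 177, 361 and 421 CPM at D40, 179.5, 211 and 369 CPM at D50 and 138, 133 and 141 CPM at D60, so that its largest difference was between D40 and D30. *shg*, the E-cadherin of adherens junctions, averaged 385, 324, 228 and 144 CPM at the 4 ages, and *shakB*, an innexin of electrical synapses, 227, 178, 121 and 58.96 CPM. *shakB* overlaps *CG15450*, which rose, on the other strand.

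*tinc*, *stum* and *shg* had first libraries at D30 or D40 that differed from their partners. *tinc* was at 159 CPM in the first D30 library and 99.5 CPM in the first D40 library, against 324 to 359 CPM in the other 4 libraries of those ages. *stum* and *shg* were higher in those first libraries. With both left out, all 10 of these fallers were still called.

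The list of photoreceptor identity factors had the largest share of falling genes among lists with 15 or more tested members. Of 26 tested members 10 fell and 1 rose, or 38.5% and 3.85%, against 8.32% and 10.6% of all genes tested, and the list's median slope was -0.14 log2 units per 10 days against -0.003 for all genes. The fallers were *Mef2*, *peb*, *mirr*, *so*, *eyg*, *dve*, *lola*, *B-H2*, *toy* and *tai*. Leaving out any 1 D60 library cut the fallers to 6, and leaving out both first libraries of D30 and D40 gave 8. With offsets for gene length 8 fell. The list's median span was 19508.5 bases, and 19.9% fell in the longest of 5 equal classes of tested genes by span.

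*so* (sine oculis), a homeobox factor of the retinal determination network, had 156, 263 and 199 CPM at D30, 201.4, 140.2 and 183 CPM at D40, 162, 126 and 119.7 CPM at D50 and 132, 118 and 88.5 CPM at D60 (slope -0.30 ± 0.07, adjusted p = 0.0032). All D60 libraries lay below all D30 libraries, and neighbouring ages overlapped. *Mef2*, a MADS box factor, had 452, 364 and 359 CPM at D30, 325, 398 and 373 CPM at D40, 248, 303 and 283 CPM at D50 and 209, 189.9 and 223 CPM at D60 (slope -0.31 ± 0.05, adjusted p = 1.8e-04). *peb* (hindsight), a zinc finger factor needed for photoreceptor morphogenesis, averaged 773, 688, 560.1 and 487 CPM at D30, D40, D50 and D60, and *mirr*, a homeobox factor of the dorsal eye, 62.5, 56.8, 35.6 and 33.1 CPM. *eyg*, a Pax factor, had 32.4, 34.98 and 43.3 CPM at D30, 38.4, 36.5 and 20.8 CPM at D40, 27.1, 13.6 and 19.1 CPM at D50 and 18.2, 14.8 and 5.62 CPM at D60. *dve*, a homeobox factor that represses rhodopsin genes in outer photoreceptors, averaged 496, 360.3, 389 and 292 CPM.

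The single riser, *oc* (orthodenticle), a homeobox activator of rhodopsin genes, had 1292, 1702 and 1786 CPM at D30, 1852, 1508 and 1535 CPM at D40, 1471, 1587 and 1601 CPM at D50 and 2306, 2276 and 2346 CPM at D60. Its D60 libraries lay above all others and the earlier ages overlapped. Its slope was 0.16 ± 0.05 log2 units per 10 days (SE, adjusted p = 0.035), which missed the threshold without any 1 D60 library (adjusted p = 0.12, 0.11 and 0.12), without D30 replicate 1 (adjusted p = 0.079) or without D40 replicate 2 (adjusted p = 0.055).

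**Figure D3:**
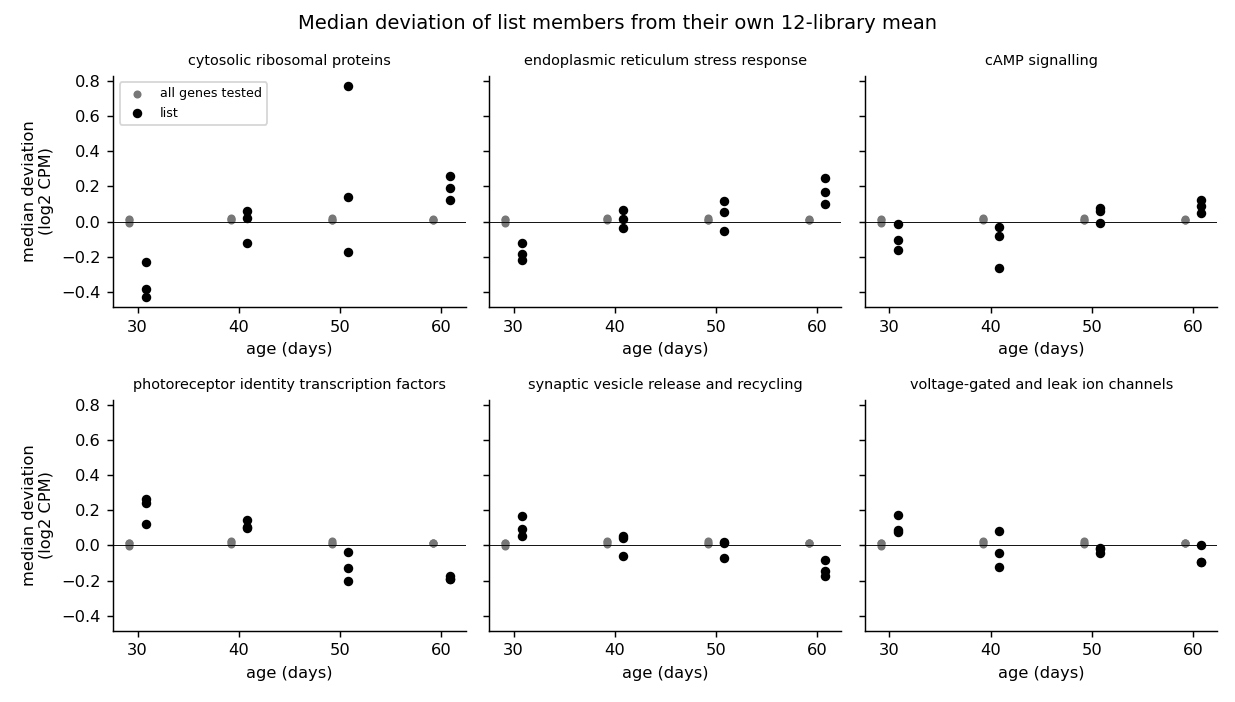
Median deviation of the tested members of 6 gene lists from their own mean over the 12 libraries, in log2 CPM, against age in days. Black points are the list, 1 per library, and grey points all genes tested. Eye transcription factors lie above 0 in all D30 and D40 libraries and below 0 in all D50 and D60 libraries, and ribosomal protein genes have 1 high library at D50.

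Genes of synaptic vesicle release and recycling tended to fall: 11 of 49 tested members fell and 3 rose, 22.4% and 6.12%, against 8.32% and 10.6% of all genes tested, with a median slope of -0.09. The fallers included *Syt1*, the calcium sensor of release, with 2788, 3086 and 3188 CPM at D30, 2766, 3159.6 and 2930.2 CPM at D40, 2354, 2687 and 2714 CPM at D50 and 2305, 2133 and 2096 CPM at D60 (slope -0.16 ± 0.04, adjusted p = 0.0062), *lqf* (epsin), a clathrin adaptor, averaging 4531, 3669.9, 2989 and 2529 CPM at the 4 ages, and *Rab3-GEF*, averaging 1741, 1687, 1409 and 1198 CPM. *brp*, the core scaffold of the active zone, went the other way, with 5129.6, 6413 and 6368 CPM at D30, 6924, 6286 and 6504 CPM at D40, 7765, 7053 and 7374 CPM at D50 and 9584, 9814 and 9584 CPM at D60 (slope 0.23 ± 0.04, adjusted p = 3.2e-04). Its libraries were in order from age to age but for D30 and D40, which overlapped. The count of fallers was 5 without any 1 D60 library and 5 of 49 with offsets for gene length. The list's median span was 13948 bases. By span, 10.2% of tested genes fell in the class of 6617 to 16126 bases and 19.9% in the longest class. The part that span plays in this list was not tested further.

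Of 35 voltage-gated and leak channels 5 rose and 9 fell, 14.3% and 25.7%, against 10.6% and 8.32% of all genes tested. *Shab*, a delayed rectifier potassium channel of photoreceptors, had 1031, 1204 and 1259.9 CPM at D30, 1409, 1283 and 1275 CPM at D40, 1552, 1631 and 1867 CPM at D50 and 2023, 1947 and 1975 CPM at D60, fully ordered by age (slope 0.26 ± 0.04, adjusted p = 7.3e-05). *eag*, another potassium channel, had 3079, 3861 and 3892 CPM at D30, 2085, 3725 and 3464 CPM at D40, 2186, 2593 and 3166 CPM at D50 and 1899.7, 1988 and 1819.5 CPM at D60 and fell (slope -0.30 ± 0.06, adjusted p = 0.0014), although its first D40 library lay below all D50 libraries. *SK*, a calcium-activated potassium channel, fell too, averaging 2547, 1921, 1851 and 1548 CPM at the 4 ages, as did *ClC-a*, a chloride channel, averaging 1926, 1922, 1597 and 1236 CPM. *stol*, a calcium channel subunit of the alpha2-delta type, averaged 777, 627, 559 and 357 CPM. The fallers numbered 5 without D60 replicate 1 or 2 and 8 with offsets for gene length. The list's median span was 17718 bases, and 19.9% fell in the longest of 5 equal classes of tested genes by span. Of 25 neurotransmitter receptor genes 3 fell and none rose by edgeR's test (1 had a positive slope at an unadjusted p under 0.05, and DESeq2 called none rising). The fallers included *Ekar*, a kainate-type glutamate receptor of photoreceptors, at 523, 469, 349.5 and 252 CPM.

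Of 87 adhesion and guidance genes 10 rose and 14 fell, 11.5% and 16.1%, against 10.6% and 8.32% of all genes tested, so that the share of risers was near that of all genes. These genes are long, with a median span of 50951 bases. In the longest of 5 equal classes of tested genes by span, 12% rose and 19.9% fell, so the share of fallers was no higher than in genes that long. With offsets for gene length 13 rose and 11 fell. *Fas2*, the fly's NCAM-type protein, had 43.8, 57.01 and 61.3 CPM at D30, 74.3, 76.6 and 59.8 CPM at D40, 116, 141 and 126 CPM at D50 and 203.3, 269 and 246 CPM at D60 (slope 0.75 ± 0.06, adjusted p = 8.3e-08). *dpr11*, of a family of cell surface proteins that pair with DIP proteins, had 514, 637 and 702 CPM at D30, 866, 714 and 866 CPM at D40, 869, 931 and 1336 CPM at D50 and 1639, 1604 and 1626 CPM at D60 (slope 0.45 ± 0.05, adjusted p = 3.7e-06). Both cadherins of the Fat system rose. *ft* had 61.6, 60.9 and 62.8 CPM at D30, 76.7, 74.2 and 65.96 CPM at D40, 130.3, 91.2 and 134 CPM at D50 and 153, 167 and 157 CPM at D60 (slope 0.49 ± 0.06, adjusted p = 8.3e-06), and *ds*, its ligand, had 16.2, 10.4 and 23.9 CPM at D30, 9.59, 14.1 and 19.5 CPM at D40, 25.8, 34.5 and 15.3 CPM at D50 and 119.9, 110.4 and 107 CPM at D60 (slope 1.07 ± 0.14, adjusted p = 3.5e-05), so that D60 alone was set apart. *app*, which acts with *ft*, was among the steep fallers above.

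Among the fallers, *CadN*, the N-cadherin of photoreceptor axon targeting, had 2527, 2464 and 2451 CPM at D30, 2033, 2371 and 2422 CPM at D40, 1745, 2046 and 1856 CPM at D50 and 1322, 1283 and 1211 CPM at D60 (slope -0.32 ± 0.04, adjusted p = 5.3e-05). *Ptp4E*, a receptor tyrosine phosphatase, had 642, 709 and 639.7 CPM at D30, 421, 583 and 568 CPM at D40, 438, 435 and 458 CPM at D50 and 252, 276 and 259 CPM at D60 (slope -0.42 ± 0.05, adjusted p = 1.0e-05). *Fas1* averaged 3305, 2951, 2681 and 2105 CPM at the 4 ages, and *robo1*, a receptor for Slit, 127, 100.4, 76.6 and 71.3 CPM. Of the scaffolds and junction proteins, *pyd* (the ZO-1 protein) averaged 2451, 1775, 1597 and 886 CPM and fell (slope -0.45 ± 0.06, adjusted p = 5.4e-05), and *cno*, the afadin protein, was fully ordered downward, averaging 1623, 1388, 1198 and 1057 CPM.

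Of 65 splicing factors and other RNA-binding proteins 11 fell and 3 rose, 16.9% and 4.62%, against 8.32% and 10.6% of all genes tested. The kinases of SR proteins *Srpk79D* and *Doa* fell, averaging 109, 102, 67.2 and 46.1 CPM and 6158, 5742, 3947 and 3997 CPM at the 4 ages. *hfp*, a splicing factor of the PUF60 type, averaged 479, 407, 349 and 292 CPM. *Brr2*, the helicase that unwinds U4/U6, rose (slope 0.30 ± 0.06, adjusted p = 0.0011), averaging 60.3, 67.6, 84.2 and 112 CPM. The fallers numbered 7 without D30 replicate 2 or D60 replicate 1 and 6 without D60 replicate 2.

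Of 79 chromatin genes 4 rose and 9 fell, 5.06% and 11.4%, against 10.6% and 8.32% of all genes tested. Of the histone chaperone FACT, the subunit *dre4* rose, with 24.3, 27.2 and 23.9 CPM at D30, 34.8, 24.7 and 30.5 CPM at D40, 41.8, 43.2 and 39.5 CPM at D50 and 50.1, 48.5 and 56.2 CPM at D60 (slope 0.36 ± 0.07, adjusted p = 0.0014). The other subunit, *Ssrp*, was called too, averaging 4.91, 10.4, 17.3 and 19.8 CPM at the 4 ages. So low at D30, it may have passed the filter only through later ages, so its call adds no support. Among the fallers *Kdm4B*, a histone demethylase, averaged 100.01, 98.2, 68.5 and 60.5 CPM and *Set8*, a histone H4 methyltransferase, 38.5, 26.8, 16.1 and 17.5 CPM. The risers numbered 2 without D40 replicate 2 or 3 or any 1 D60 library. The count of fallers changed with the settings, being 2, 3 and 5 without D60 replicate 1, 2 or 3, 5 without D30 replicate 2 and 11 without both first libraries of D30 and D40.

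Genes of DNA replication were few at these ages, with 5 of 39 listed genes tested, of which 4 rose. A gene that passes the filter only through the ages at which it is high must differ, so this share supports nothing. *Cdc6*, which loads the replicative helicase onto origins, had 9.72, 16.8 and 14.9 CPM at D30, 26.4, 7.07 and 9.77 CPM at D40, 76.2, 66.6 and 87.9 CPM at D50 and 168, 197 and 162 CPM at D60 (slope 1.40 ± 0.12, adjusted p = 1.5e-07). *Mcm3*, a subunit of that helicase, averaged only 4.26, 6.45, 11.4 and 28.7 CPM. In DNA repair 4 of 29 rose and 1 fell, 13.8% and 3.45%, against 10.6% and 8.32% of all genes tested. *rad50*, of the MRN complex that binds broken ends, had 12.97, 23.3 and 17.9 CPM at D30, 20.4, 29.5 and 25.6 CPM at D40, 33.2, 38.2 and 36.9 CPM at D50 and 54.6, 39.1 and 40.7 CPM at D60 (slope 0.43 ± 0.09, adjusted p = 0.0014), and *Ku80*, of the end-joining Ku dimer, averaged 6.81, 14.8, 13.3 and 34.6 CPM. *Ku80*, low at D30, may have passed the filter only through later ages, so its call adds no support. *DNAlig3*, a DNA ligase, averaged 28.8, 36.05, 47.8 and 70.4 CPM.

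Genes of cytosolic ribosomal proteins leaned upward as a list: 15 of 76 rose and none fell by edgeR (0 falling at an unadjusted p under 0.05 or by DESeq2), 19.7% against 10.6% of all genes tested, 72 of 76 slopes were positive and the median slope was 0.20. *RpL19* had 16.2, 27.2 and 28.4 CPM at D30, 26.4, 28.3 and 32.98 CPM at D40, 77.5, 38.2 and 34.4 CPM at D50 and 65.2, 53.9 and 60.4 CPM at D60 (slope 0.47 ± 0.10, adjusted p = 0.0019), and *RpS4* 47.00, 42.8 and 55.3 CPM at D30, 85.1, 53.03 and 52.5 CPM at D40, 152, 56.7 and 64.95 CPM at D50 and 112, 105 and 98.4 CPM at D60 (slope 0.39 ± 0.10, adjusted p = 0.0078). The first D50 library was the highest of all in both genes, and the list's median deviation there was 0.77 log2 units against -0.43 to 0.26 in the other 11 libraries. The risers numbered 9 without D30 replicate 1 or 2, 10 without both first libraries of D30 and D40, and 8 with length offsets. A line over D40 to D60 alone called 1 of 75 rising, and a line over D30 to D50 alone 2 of 75. The list's median steps were 0.34, 0.37 and -0.08 log2 units in turn, so the last was not upward. The list's median span was 1403.5 bases. Of all tested genes of 268 to 2320 bases 12.9% rose. Among the 49 of these in the highest of 3 equal classes by counts 32.7% rose. The part that span plays in this list was not tested further. Of 20 aminoacyl-tRNA synthetases 3 rose (15%), while edgeR called none of 6 mitochondrial ribosomal proteins and none of 18 proteasome subunits. At an unadjusted p under 0.05 these lists had 0 genes, and 2 rising and 1 falling genes, and DESeq2 called none of either.

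In the endoplasmic reticulum list 6 of 24 (25%) rose, against 10.6% of all genes tested, and none fell by edgeR (0 falling at an unadjusted p under 0.05 or by DESeq2). *Gp93*, a chaperone of the endoplasmic reticulum, had 45.4, 50.5 and 56.8 CPM at D30, 68.3, 75.4 and 75.7 CPM at D40, 114, 72.8 and 77.7 CPM at D50 and 98.6, 131 and 95.5 CPM at D60 (slope 0.35 ± 0.07, adjusted p = 9.9e-04), and *Xbp1*, the transcription factor of the unfolded protein response, had 95.6, 95.9 and 121 CPM at D30, 121, 118 and 138 CPM at D40, 165, 119.6 and 159 CPM at D50 and 150.2, 166 and 166 CPM at D60 (slope 0.21 ± 0.05, adjusted p = 0.0091). Both had D60 libraries above all D30 libraries. The risers numbered 2 without D30 replicate 1 or D60 replicate 3, and 3 without D60 replicate 2 or without both first libraries of D30 and D40. Cytosolic heat shock proteins and chaperones had no risers and 2 fallers of 32 by edgeR, and none of 20 antioxidant and glutathione genes was called. At an unadjusted p under 0.05 the first list had 2 rising genes and the second 2 rising and 1 falling, and DESeq2 called none of these.

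**Figure D4:**
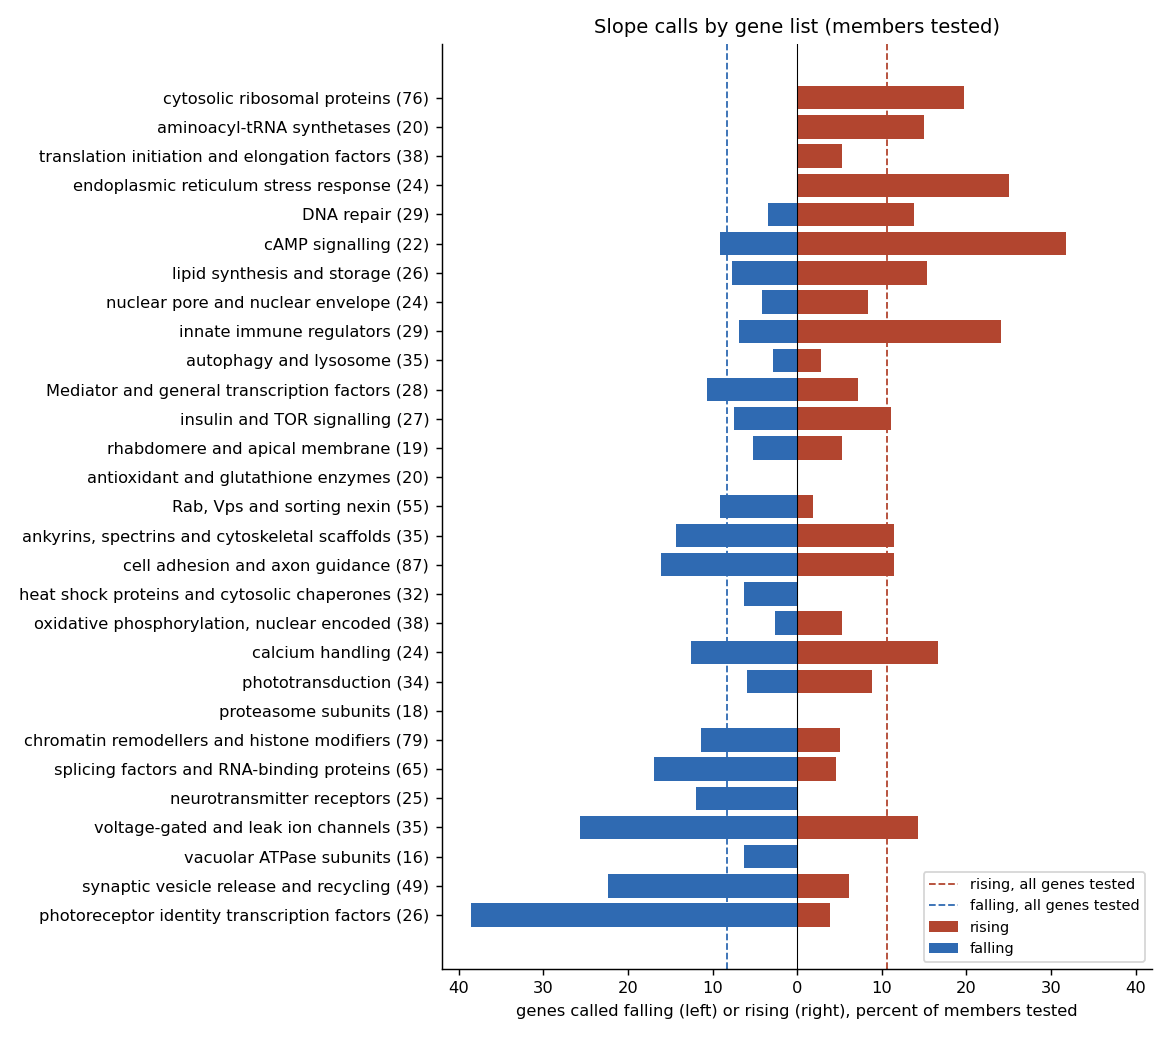
Percent of tested members called rising (bars to the right) and falling (bars to the left) in each gene list with at least 15 tested members, ordered by median slope, with the number tested in brackets. Dashed lines give the same shares over all genes tested, 10.6% rising and 8.32% falling. Eye transcription factors have the longest falling bar and cyclic AMP signalling the longest rising bar.

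Cyclic AMP genes had the largest share of risers among lists of 15 or more tested members. Of 22 tested members 7 rose and 2 fell, 31.8% and 9.09%, against 10.6% and 8.32% of all genes tested. The share of fallers was thus near that of all genes. The list's median span was 33818.5 bases, and 12% rose and 19.9% fell in the longest of 5 equal classes of tested genes by span. The risers stood on both sides of the second messenger's turnover: *Ac78C* makes it, and the phosphodiesterases *Pde8*, *Pde11* and *Pde1c* break it down. *Pde8* had 71.3, 103.7 and 97.1 CPM at D30, 107, 114 and 96.5 CPM at D40, 156, 142 and 92.97 CPM at D50 and 285, 316 and 278 CPM at D60 (slope 0.56 ± 0.08, adjusted p = 3.2e-05). *Pde11* averaged 196, 209, 316 and 399 CPM at the 4 ages and *Akap200*, an anchor of protein kinase A, 40.4, 55.6, 88.96 and 107 CPM. A further phosphodiesterase, *dnc*, had 1066, 1214 and 1217 CPM at D30, 786, 1017 and 1002 CPM at D40, 771, 882 and 1038 CPM at D50 and 704, 688 and 712 CPM at D60 and fell (slope -0.23 ± 0.05, adjusted p = 0.0015), with its first D40 library below the other D40 libraries.

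Of 24 calcium genes 4 rose and 3 fell, 16.7% and 12.5%, against 10.6% and 8.32% of all genes tested. The risers numbered 2 without D30 replicate 2 or 3, D40 replicate 2 or any 1 D60 library, and the fallers 1 without D60 replicate 2 or 3 and 5 without both first libraries of D30 and D40. *RyR*, the ryanodine receptor that releases stored calcium, had 79.4, 115.3 and 71.7 CPM at D30, 80.3, 159 and 183 CPM at D40, 275, 242 and 284 CPM at D50 and 334, 391 and 346 CPM at D60 and rose (slope 0.69 ± 0.08, adjusted p = 3.1e-06). *Cam*, calmodulin, had 2126, 1464 and 1632 CPM at D30, 1524, 1299 and 1243 CPM at D40, 1167, 1512 and 1421 CPM at D50 and 965, 948 and 889 CPM at D60 and fell (slope -0.27 ± 0.05, adjusted p = 0.0013). Of 34 phototransduction genes 3 rose and 2 fell, 8.82% and 5.88%. The risers numbered 1 without any 1 D60 library and 5 without both first libraries of D30 and D40. The fallers numbered 1 to 3 with 1 library left out, 4 with length offsets and 6 of 35 without both first libraries. The risers included *trpl*, a light-activated cation channel, at 13225, 12805 and 11458 CPM at D30, 15407, 10393 and 11169.8 CPM at D40, 21052, 14281 and 15143 CPM at D50 and 16952, 18637 and 17138 CPM at D60 (slope 0.19 ± 0.05, adjusted p = 0.015), whose first D50 library was the highest of the 12.

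Of 29 immune regulators 7 rose and 2 fell, 24.1% and 6.9%, against 10.6% and 8.32% of all genes tested, and with at least 10 counts asked of every library 4 rose. *PGRP-LC*, the receptor of the Imd pathway, had 27.6, 40.2 and 47.8 CPM at D30, 33.6, 48.3 and 51.3 CPM at D40, 49.2, 48.1 and 71.3 CPM at D50 and 86.5, 72.7 and 112 CPM at D60 (slope 0.41 ± 0.08, adjusted p = 0.0014), and *Myd88*, an adaptor of the Toll pathway, 21.1, 20.7 and 22.4 CPM at D30, 37.2, 21.2 and 28.1 CPM at D40, 34.4, 34.5 and 50.9 CPM at D50 and 53.1, 60.6 and 46.4 CPM at D60 (slope 0.44 ± 0.08, adjusted p = 8.8e-04). *Tl*, the Toll receptor itself, fell, averaging 154, 142, 113 and 70.7 CPM at the 4 ages (slope -0.36 ± 0.07, adjusted p = 0.0015). Of 7 tested antimicrobial peptide genes, *Dro* (drosocin) and *Mtk* (metchnikowin) rose, but at few counts: *Dro* had 0, 2.59 and 4.48 CPM at D30, 9.59, 3.54 and 8.55 CPM at D40, 36.9, 8.63 and 15.3 CPM at D50 and 33.4, 25.6 and 44.96 CPM at D60.

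Of 7 core clock genes 5 rose and 1 fell, 71.4% and 14.3%, against 10.6% and 8.32% of all genes tested, all in libraries collected at ZT 6. Of the 5 risers 0 were steady. The median steps of the list were -0.05, -0.14 and 0.72 log2 units in turn, so the median step was upward only between D50 and D60. By library, the list's median deviation was -0.50 in each D30 library, -0.07 to 0.06 at D40, -0.09 to 0.04 at D50 and 0.52 to 0.65 at D60. By that measure the list was also higher at D40 than at D30. *per* had 45.4, 77.7 and 67.3 CPM at D30, 188, 244 and 269.9 CPM at D40, 239.8, 150.4 and 199.9 CPM at D50 and 355, 404 and 358 CPM at D60 (slope 0.66 ± 0.11, adjusted p = 3.3e-04), with its largest difference on the log2 scale between D40 and D30. *tim* (0.46), *cwo* (0.67) and *vri* (0.34) rose too, in log2 units per 10 days, and *Clk*, the activator, averaged 581, 498, 444 and 371 CPM and fell (slope -0.21 ± 0.05, adjusted p = 0.0048). *cyc* averaged 21.6, 20.3, 19.1 and 11.4 CPM and did not pass (slope -0.25 ± 0.12, adjusted p = 0.16).

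*rictor*, a partner of TOR kinase, averaged 164, 181, 198 and 262 CPM at the 4 ages and rose (slope 0.22 ± 0.06, adjusted p = 0.0092), in a list of insulin and TOR genes with 3 risers and 2 fallers of 27, 11.1% and 7.41%, near the shares of all genes tested. *SREBP* and *FASN1*, the activator and the synthase of fatty acid production, averaged 180.1, 287, 245 and 354 CPM and 481, 959, 787 and 1202 CPM. Both rose (slope 0.26 ± 0.06, adjusted p = 0.0044 and slope 0.36 ± 0.09, adjusted p = 0.0083), though their D40 means lay above those of D50. *Snx1*, a sorting nexin, had 25.9, 28.5 and 62.8 CPM at D30, 27.6, 43.6 and 68.4 CPM at D40, 164, 147 and 186 CPM at D50 and 266, 264 and 298 CPM at D60 (slope 1.05 ± 0.11, adjusted p = 9.3e-07). D30 and D40 overlapped, and D50 and D60 lay apart from them and from each other. *Nup98-96*, which encodes nucleoporins, averaged 78.1, 98.7, 104.2 and 188 CPM (slope 0.40 ± 0.06, adjusted p = 1.2e-04), and *Taf1*, the largest subunit of the general factor TFIID, 178, 212, 244 and 402 CPM (slope 0.38 ± 0.06, adjusted p = 1.7e-04), with most of the change at D60. Without the D60 libraries *rictor*, *SREBP*, *FASN1*, *Nup98-96* and *Taf1* were not called (adjusted p between 0.28 and 0.53 over D30 to D50), nor were *SREBP* and *FASN1* without those of D30 (adjusted p = 0.30 and 0.43). *Snx1* was called in both.

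Some markers of other cell types moved along with age. The 13 glial markers summed to 323 to 362 CPM at D30, 330 to 416 CPM at D40, 355 to 535 CPM at D50 and 646 to 750 CPM at D60. The risers of that list were *Eaat1*, a glutamate transporter of glia, with 63.2, 42.8 and 28.4 CPM at D30, 133, 69.5 and 53.7 CPM at D40, 136, 107 and 56.04 CPM at D50 and 322, 325 and 359.7 CPM at D60 (slope 0.94 ± 0.11, adjusted p = 9.8e-06), and *loco*, which averaged 43.4, 41.6, 64.7 and 111 CPM. The defining glial factor *repo* had 17, 23, 24 and 15 counts summed over the libraries of each age in turn. Between D30 and D60 such counts went from 91 to 709 in *Eaat1* and 92 to 235 in *loco*, where most of the list's rise lay. They went from 215 to 262 in *nrv2*, 26 to 48 in *Gat*, 103 to 68 in *axo* and 35 to 29 in *moody*. Of the 8 tested members 4 had positive and 4 negative slopes. The tested gene nearest to *Eaat1* was *Cks30A*, 1586 bases away and itself a steep riser. The part that shared reads play there was not tested. The other-neuron list summed to 238 to 355 CPM at D30 and 936 to 1017 CPM at D60, a rise that lay in *ple*. *ple*, the tyrosine hydroxylase of dopamine synthesis, was the list's only riser by edgeR, with 118, 178 and 169 CPM at D30, 173, 95.5 and 73.3 CPM at D40, 493, 379 and 695 CPM at D50 and 779.9, 804 and 882 CPM at D60 (slope 0.93 ± 0.12, adjusted p = 3.2e-05). It had 323 counts summed over the D30 libraries and 1739 over those of D60. Between the same ages the next largest members went from 85 to 63 (*VGlut*), 79 to 78 (*Vmat*), 76 to 68 (*VAChT*) and 31 to 32 (*Gad1*). No other member of the list had more than 13 counts at either age. Fat body and haemolymph markers summed to 785 to 1467 CPM at D30, 1651 to 1682 CPM at D40, 1130 to 2319 CPM at D50 and 1852 to 1900 CPM at D60. Most of that sum was *FASN1*, with 979, 2397, 1906 and 2543 counts at the 4 ages, and *apolpp*, with 986, 1641, 2298 and 1357. *Lsp2* had only 24, 19, 46 and 4 counts, *Yp3* 10, 21, 8 and 10 and *Yp1* 0, 8, 2 and 4. Muscle, haemocyte, cone and pigment cell and R7/R8 markers had no called gene by edgeR's test, 0 at an unadjusted p under 0.05 and none by DESeq2. In bulk nuclei fewer nuclei of a type and less RNA per nucleus cannot be told apart, and the part that other cells play in the risers was not tested. The genotype itself carries parts of *Msp300*, *ry* and *w*, so counts of these genes are not read here as levels of the native genes.

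The called fallers were longer than the risers. The median span from start to end was 14488 bases in fallers and 5074 bases in risers, against 4935 bases in all genes tested, from Ensembl's BDGP6 annotation. Over 5 equal classes of the tested genes by span, from short to long, the share that fell was 2.65%, 3.29%, 5.62%, 10.2% and 19.9%, while the share that rose was 12.9%, 8.7%, 9.23%, 9.99% and 12%. Fallers also had more counts, with a median of 155 per library against 29.5 in all genes, and the part that counts play in the pattern with span was not tested. In 3 equal classes of the genes by counts, the share falling over the span classes, short to long, was 1.81%, 1.56%, 1.01%, 1.88% and 1.9% in the lowest, 3.85%, 3.57%, 5.08%, 7.2% and 8.82% in the middle and 6.12%, 9.8%, 9.59%, 13.9% and 28.6% in the highest. The lowest class thus had no such order by span. In the highest, the shortest genes rose in 32.7% of 49. With offsets that level out any trend with length in each library, the fallers in the 5 classes numbered 46, 42, 55, 78 and 124, against 25, 31, 53, 96 and 187 without them.

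**Figure D5:**
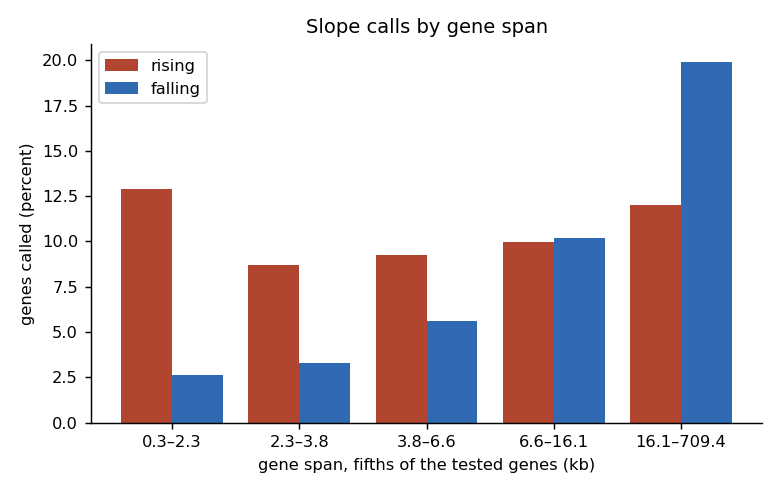
Percent of genes called rising and falling in each of 5 equal classes of the tested genes by gene span in kilobases (start to end in the annotation). The share falling grows from 2.65% in the shortest class to 19.9% in the longest, and the share rising stays between 8.7% and 12.9%.

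The nearest tested gene had also risen for 25.7% of risers, against 10.1% of all genes tested, and the nearest tested gene had fallen for 12% of fallers, against 8.43%. For risers the share was 27.5% where the nearest tested gene overlapped, against 9.27% of all genes, 28.1% within 1000 bases, against 10.8%, 25.2% beyond 1000 and up to 10000 bases, against 10%, and 11.4% beyond 10000 bases, against 8.89%. For fallers it was 28.6% where genes overlapped, against 8.23% of all genes, and 8.39%, 6.67% and 10% over the longer distances in turn, against 7.87%, 8.93% and 10.1%. The part that shared reads play was not tested. *plh* and *CG14662*, 2268 bases apart, were the steepest such pair of risers, at 1.46 and 1.39 log2 units per 10 days, and were named after their values were seen. By chromosome, 9.07% of X-linked genes rose and 10% fell, near the 10.6% and 8.32% of all genes tested. On the small chromosome 4, 3 of 70 rose and 10 fell, or 4.29% and 14.3%. These are few genes, with a median span of 10741 bases against 4935 in all genes tested, and the part that span plays was not tested.

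In the separate DD and LD libraries, of 2 each and of uncertain age, the median log2 difference of DD minus LD was -0.03 over the risers, 0.18 over the fallers and 0.10 over all genes tested, and the quartiles of each set lay on either side of 0.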

How the data were processed

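The authors deposited raw counts per gene, with no normalization. The submitters' processing notes name Trimmomatic, STAR, SAMtools and DESeq2 with the dm6 and BDGP6 builds. Strand setting, annotation release and duplicate handling are not given in the sources used here. Fold changes and p-values of the authors were not used. 13866 of 13929 gene IDs had an Ensembl release position in BDGP6, whose coordinates are those of dm6.

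Genes were kept by filterByExpr (minimum count 10, minimum total 15) over the 4 ages, scaled by TMM and fitted in edgeR 4.0.16 (R 4.3.3) with age as a number, in units of 10 days. SE was the slope divided by the square root of its F. Curvature was an added squared term, and step sizes came from a fit with 4 age means. CPM used TMM-scaled library sizes. DESeq2 1.42.0 and the other settings are described with the limits. The fits were tested on simulated data. Depth was 629634 to 864536 counts per library, so genes at a few CPM rest on a few counts.

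The gene lists, members and tests were chosen with earlier results of these data known, and 1 gene, *peb*, was taken off the splicing list after values were seen since it encodes a transcription factor. List counts carry no test. Named genes were the 10 steepest steady genes each way with at least 50 counts per library, up to 4 called members per direction of each list with 3 or more calls, the 7 core clock genes, curved genes and leading markers. Other names from the lists (*ds*, *robo1*, *dve* and full lists of fallers, for example) were given after values were seen. Some genes that the rule picks are not reported here. No sequences are shown.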

Additional observations from a re-analysis of the deposited data

How the results depend on the processing

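The number of genes called for a slope on age, 896, lay between 602 and 986 when 1 library was left out and between 635 and 970 under other size factors, filters, length offsets and DESeq2. It was 516 over D40 to D60 (428 shared with the 896), 67 over D30 to D50 (63 shared) and 559 by a test of any difference among the 4 ages (516 shared). Risers were 55.9% of calls, against 86.6% over D30 to D50, 63.2% over D40 to D60 and 62.3% with library size alone. With a replicate block the count was 869. Deviations of same-numbered libraries correlated at a mean of 0.0137 (from -0.0966 to 0.249 over 18 pairs). Those of differently numbered libraries correlated at -0.0057 (from -0.190 to 0.143 over 36 pairs). A mean cannot show whether single pairs were handled together, and pairing by replicate number was not tested. Without the first libraries of D30 and D40, which was chosen after seeing the data, 946 genes were called and 723 of them were among the 896, and without all 4 first libraries 782. Calls of the quadratic term in age, 4 genes, were the least stable: 74 without a filter, 10 by DESeq2, 47 without both first libraries, 34 without all 4, and 0 to 23 with 1 library left out, while the replicate block gave 3. Over D30 to D50 the slopes of *oc*, *Calx* and *Pdp1* turned to -0.0080, -0.0058 and -0.033 log2 units per 10 days. Slopes of called named genes otherwise kept their direction under every setting run, with 529 of the gene and setting pairs no longer called. Named genes with few counts, such as *Mcm3* and *Dro*, rest on 10 or so counts per library, which limits their precision.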
